A study of Homo sapiens with 6 samples.

Results

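The Krüppel-like factors (KLF) are zinc finger transcription factors, and 10 of them were followed here in H295R, a steroid-producing cell line from a human carcinoma of the adrenal cortex. The 10 genes, KLF2, KLF4, KLF5, KLF6, KLF7, KLF9, KLF10, KLF11, KLF12 and KLF13, were taken by symbol from 33616 genes measured on the arrays, each by its row with the highest mean where it had several. The cells had received 5 µM CX-4945 for 24 h on 3 arrays, and the solvent DMSO for 24 h on the other 3. CX-4945, or silmitasertib, is an inhibitor of CK2, a serine/threonine kinase, and also of CLK kinases. Both groups were the same line, with no genetic change named in the labels. The labels do not say whether replicates came from separate cultures. The p-values therefore reflect the spread among these 6 samples alone, and that spread may be technical.

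KLF proteins share a block of C2H2 zinc fingers at their C terminus, with which they bind GC-rich and CACCC sequences in promoters, as the related SP factors do. They differ in the rest of the protein. KLF1, KLF2, KLF4, KLF5, KLF6 and KLF7 recruit acetyltransferases and mostly activate genes, KLF3, KLF8 and KLF12 bind the corepressor CtBP, and KLF9, KLF10, KLF11, KLF13, KLF14 and KLF16 bind the corepressor SIN3A. In pig granulosa cells, KLF4, KLF9 and KLF13 have been studied as regulators of genes for steroid synthesis.

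Of the 10 KLF genes, 6 were higher with CX-4945 and 1 was lower in the fit over all genes (limma, Benjamini-Hochberg adjusted p under 0.05). One of the 6, KLF4, had all arrays below the level taken as background, so 5 rises were of genes with signal above it. Among all 33616 genes 22.8% were called, 10.3% as higher and 12.5% as lower. The 10 were chosen with earlier results of these data known, so their counts beside shares of all genes are description and no test. Of the 7 other measured KLF genes 1 was higher and 1 lower. None of those differed by at least 2-fold, and their median log2 difference was -0.21. KLF2 and KLF5 showed the largest log2 differences of the 10, at 3.33 and 2.80, and KLF7, KLF10 and KLF6 followed with 1.44, 1.34 and 1.02. KLF12 fell by 1.55 on the log2 scale, and KLF9, KLF11 and KLF13 did not pass. At least 2-fold and called higher were 5 of the 10, against 4.34% of all genes. With KLF12, whose fitted difference passes 2-fold but whose treated arrays were at background and bound it only at 1.34-fold, the count in either direction was 6 of the 10, against 11.4% of all genes. The median fitted log2 difference of the 10 was 1.01, beside 0.02 over all genes, and it includes KLF4 and KLF13, which were at background in both groups. KLF6 fell short of 2-fold after quantile normalization (log2 difference 0.96) and with equal array medians (0.89). The shares of all genes include many genes at background, since 17337 of the 33616 had a group mean above it. With a filter at the median intensity, 7408 of 16808 genes were called, 3346 of them higher. The groups did not overlap in 7 of the 10 genes, against 36% of all genes. An exact two-sided permutation of the 6 values of a gene cannot give a p below 0.1 with 3 arrays against 3, and it gave 0.1 for each of these 7.

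**Figure D1:**
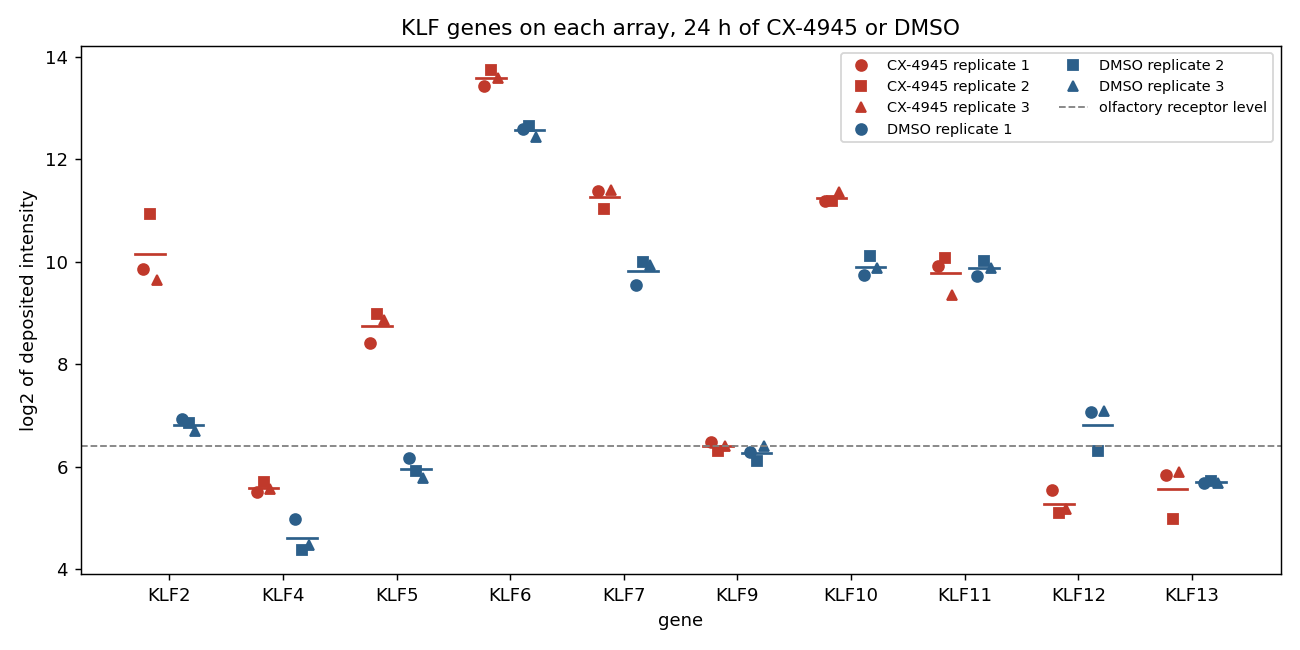
Log2 of the deposited intensity (vertical axis) of the 10 KLF genes (horizontal axis) on each array. Points are arrays, with the shape giving the replicate number, short lines are group means, CX-4945 stands left of DMSO, and the dashed line marks the level of 6.396 that most olfactory receptor genes did not reach, used as background. CX-4945 points lie above all DMSO points for KLF2, KLF4, KLF5, KLF6, KLF7 and KLF10 and below them for KLF12.

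Promoter sequences are given for 4 of the genes that changed, because MEF2 factors and the factors that bind GC boxes are among the genes described below. RefSeq start sites on GRCh38.p14 gave 17 windows of 250 bases upstream for 9 of the 10 genes, and KLF10 was not among them. MEF2 factors bind the KLF2 promoter in endothelial cells, where the kinase ERK5 acts through them. The MEF2 consensus, searched on both strands, matched in 2 of the 17 windows, in that of KLF2, which was higher with CX-4945, and in 1 of the 4 windows of KLF12, which was lower. It occurred in 2.80% of 35116 windows of all genes. The match CTAAATTTAG of KLF2 lay at bases -120 to -111 from the start and the match CTATTTTTAA of KLF12 at -190 to -181, and neither overlapped a match to another motif. They stand in capitals in the sequences, which run 5′ to 3′ on the strand of the gene.
KLF2 (chr19:16324576-16324825, plus strand): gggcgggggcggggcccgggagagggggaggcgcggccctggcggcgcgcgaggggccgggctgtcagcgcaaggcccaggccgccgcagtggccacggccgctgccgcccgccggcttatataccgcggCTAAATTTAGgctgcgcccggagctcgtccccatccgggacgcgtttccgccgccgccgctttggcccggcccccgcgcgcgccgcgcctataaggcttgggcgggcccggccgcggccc
KLF12 (chr13:74026889-74027138, minus strand): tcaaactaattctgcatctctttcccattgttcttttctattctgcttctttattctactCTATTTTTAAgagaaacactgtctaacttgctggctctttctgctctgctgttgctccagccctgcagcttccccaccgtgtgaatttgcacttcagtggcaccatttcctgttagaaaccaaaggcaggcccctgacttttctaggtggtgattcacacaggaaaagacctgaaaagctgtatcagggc

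The GC box GGGCGG, a site that SP and KLF proteins bind, was found on at least one strand in 9 of the 17 windows, against 42.6% of all windows. Those 9 belonged to KLF2, KLF4, KLF5, KLF6, KLF7, KLF11, KLF12 and KLF13. KLF11 and KLF13 were not called as changed, and KLF11 had 2 and 6 matches in its windows and KLF13 had 3. Of the windows of KLF5, the one not shown had 0 matches. KLF5 and KLF6, which were both higher with CX-4945, each had 2 matches in the window shown, in capitals as GGGCGG or, on the other strand, CCGCCC.
KLF5 (chr13:73058755-73059004, plus strand): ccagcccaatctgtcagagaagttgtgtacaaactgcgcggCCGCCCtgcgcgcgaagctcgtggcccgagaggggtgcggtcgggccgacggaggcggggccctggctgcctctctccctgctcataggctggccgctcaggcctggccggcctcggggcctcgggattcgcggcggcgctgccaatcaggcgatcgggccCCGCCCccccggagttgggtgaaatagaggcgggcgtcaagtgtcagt
KLF6 (chr10:3785210-3785459, minus strand): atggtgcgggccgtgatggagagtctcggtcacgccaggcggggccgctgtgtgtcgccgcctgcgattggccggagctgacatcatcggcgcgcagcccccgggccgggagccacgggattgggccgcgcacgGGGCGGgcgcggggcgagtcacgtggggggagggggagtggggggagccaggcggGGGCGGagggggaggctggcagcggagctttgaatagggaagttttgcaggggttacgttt

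The CACCC box CCACCC was found in 4 of the 17 windows, those of KLF7, KLF12 and KLF13, against 31.3% of all windows. A cAMP response element TGACGTCA was found in 1 window, a KLF11 window, against 1.65% of all. The ATF4 composite element TGATGCAA and the AP-1 site TGACTCA were found in none of the 17, against 0.772% and 4.20% of all windows. These matches describe the letters and not the binding of a factor.

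The arrays had median intensities of 45.8 to 46.5 with CX-4945 and 40.7 to 43.1 with DMSO over 135750 rows. Across genes, CX-4945 replicate 2 correlated at 0.988 and 0.990 with the other 2 treated arrays, while every other pair within a group correlated at 0.994. The number of arrays limits the precision. As a level for background, the 95th percentile of 374 olfactory receptor genes was taken, a log2 intensity of 6.396. Intensities of different genes are not ranked against one another, since each row has its own probes. The background level, the bounds drawn from it and the summed marker intensities do combine rows of different genes and carry that limit. Of 10 adrenocortical markers 8 lay above this level in both groups, NR5A1, STAR and CYP11A1 among them, and MC2R and INHA lay below it in both. The line's summed marker intensity was 298787 to 390183 with CX-4945 and 549212 to 613649 with DMSO. Of the 10, 6 were called lower and 1 higher, against 12.5% and 10.3% of all genes.

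KLF2, the factor that laminar flow induces in endothelium and that keeps T cells quiescent, rose the most of the 10. Its intensities were 933, 1959.6 and 805 with CX-4945, against 122, 115 and 103 with DMSO. All 3 treated arrays were well above the solvent arrays, and replicate 2 stood highest, by 1.18 on the log2 scale above the mean of the other 2. Mean log2 intensity was 10.15 ± 0.69 with CX-4945 and 6.82 ± 0.12 with DMSO (SD, n = 3 each). The log2 difference was 3.33 ± 0.29 (SE), a 10.05-fold rise with a limma adjusted p of 4.38e-06, and it was higher than that of 99.8% of genes. Without CX-4945 replicate 2 it was 2.94. All solvent arrays lay above the olfactory receptor level.

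Markers of endothelial and immune cells, in which KLF2 is known to be abundant, were read beside it. Of 6 endothelial markers, PECAM1, CDH5, KDR, TIE1 and TEK lay below the olfactory receptor level in both groups and VWF above it. Their summed intensity was 207 to 230 with CX-4945 and 187 to 252 with DMSO, and none of the 6 was called changed. Of 4 measured immune markers PTPRC and CD68 lay below the level in both groups. CD3E and CD14 lay above it with CX-4945, and 1 of them did with DMSO. The summed intensity of the 4 was 381 to 512 with CX-4945 and 260 to 327 with DMSO. The fit called 2 of the 4 higher, where 10.3% of all genes were called higher. Whether these markers bear on the rise of KLF2 was not tested. In bulk RNA, fewer cells of a kind and less RNA per cell cannot be told apart. Of 4 fibroblast markers 3 were above the level in both groups and of 5 epithelial markers 2 were, with summed intensities of 1734 to 3473 and 1411 to 1645 with CX-4945, against 2233 to 3359 and 1305 to 1428 with DMSO. Of these, 1 fibroblast marker was called higher and no epithelial marker was called.

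KLF4, one of the reprogramming factors and a driver of epithelial differentiation, is the closest relative of KLF2 in this list. It gave intensities of 45.7, 52.4 and 47.2 with CX-4945, against 31.4, 20.7 and 22.3 with DMSO. The groups did not overlap, but all 6 arrays lay below the olfactory receptor level. The fit called it higher (limma adjusted p = 0.00331), and the adjusted p was 0.0532 when the variances were not moderated. Its fitted log2 difference of 0.99 ± 0.20 is a difference of signal at background and is not read as a fold of RNA. The same holds for every fitted difference below of a gene named as lying below the olfactory receptor level in both groups.

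KLF5, which promotes the growth of intestinal and other epithelial cells, was at background in the solvent cells and above it in all treated cells. Its intensities were 343, 504 and 463 with CX-4945, against 71.9, 60.2 and 54.7 with DMSO. Replicate 1 was the lowest of the treated arrays and still far above the highest solvent array. The log2 means were 8.75 ± 0.29 with CX-4945 and 5.95 ± 0.20 with DMSO (SD, n = 3 each), and the log2 difference was 2.80 ± 0.22 (limma adjusted p = 1.75e-06). As measured this was 6.97-fold. With the solvent arrays set to the olfactory receptor level, the rise was at least 5.12-fold.

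KLF6, an injury-induced factor that has been described as a tumour suppressor, was well above background in both groups. It read 10995, 13731 and 12381 with CX-4945, against 6192, 6458 and 5571 with DMSO. The groups were clearly apart, with a spread of 0.16 and 0.11 (SD of log2, n = 3 each) in treated and solvent cells. The rise was 2.03-fold, with a log2 difference of 1.02 ± 0.15 and a limma adjusted p of 2.35e-04.

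KLF7, known for its part in axon growth and in the development of sensory neurons, rose by a factor of 2.72. Its intensities were 2659, 2092 and 2703 with CX-4945, against 744, 1027 and 983 with DMSO. Every treated array lay above every solvent array, and replicate 2 was the lowest of the treated arrays, where for KLF2 it was the highest. The log2 difference was 1.44 ± 0.19 (limma adjusted p = 1.29e-04). The row of its pseudogene KLF7P1 was also called higher, with a log2 difference of 0.68 ± 0.21 (limma adjusted p = 0.0339), a call lost under both other scalings and without CX-4945 replicate 3 or any of the 3 solvent arrays (adjusted p = 0.153, 0.0822, 0.12 and 0.078). The KLF7P1 call was also lost with all rows in the adjustment (0.0781) and with treat against a fold of 1.2 (0.174). Pseudogene and parent resemble one another in sequence, and shared signal between their rows was not tested.

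KLF10, or TIEG1, is induced early by TGF-beta and represses growth genes through SIN3A. It had intensities of 2331, 2336 and 2644 with CX-4945, against 852, 1106 and 938 with DMSO. The treated arrays lay close together and apart from the solvent arrays. The rise was 2.53-fold, with a log2 difference of 1.34 ± 0.17 and a limma adjusted p of 1.02e-04.

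KLF11, the close relative TIEG2, did not pass the test. Its intensities were 966, 1077 and 652 with CX-4945, against 844, 1035 and 940.2 with DMSO, so the groups overlapped. The log2 difference was -0.09 ± 0.21 (limma adjusted p = 0.831), and it was 0.12 without CX-4945 replicate 3, the lowest array.

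KLF9, which glucocorticoids and thyroid hormone induce in many tissues, read 89.3, 79.4 and 84.8 with CX-4945, against 78.0, 69.4 and 85.2 with DMSO. The groups overlapped, and 3 of the 6 arrays lay below the olfactory receptor level. Its log2 difference was 0.13 ± 0.19 (limma adjusted p = 0.729). KLF13, an activator of the chemokine gene CCL5 in T cells, read 57.4, 31.8 and 59.5 with CX-4945, against 51.7, 52.7 and 51.3 with DMSO. Treated replicate 2 was lowest and the other 2 treated arrays were highest, and all 6 arrays lay below the olfactory receptor level. Its log2 difference was -0.12 ± 0.25 (limma adjusted p = 0.801), and its dimmer second row gave 0.17. No change of KLF13 was detectable at this signal.

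KLF12, a repressor of the gene for AP-2 alpha that acts through CtBP, was the gene that fell. It read 46.5, 34.3 and 36.1 with CX-4945, against 135, 78.9 and 136 with DMSO. The groups did not overlap, although solvent replicate 2 was well below the other 2 solvent arrays. All treated arrays lay below the olfactory receptor level, as did solvent replicate 2. The log2 difference was -1.55 ± 0.25 (limma adjusted p = 5.60e-04), which is 2.93-fold as measured. With the treated arrays set to the olfactory receptor level the gene was at least 1.34-fold lower.

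**Figure D2:**
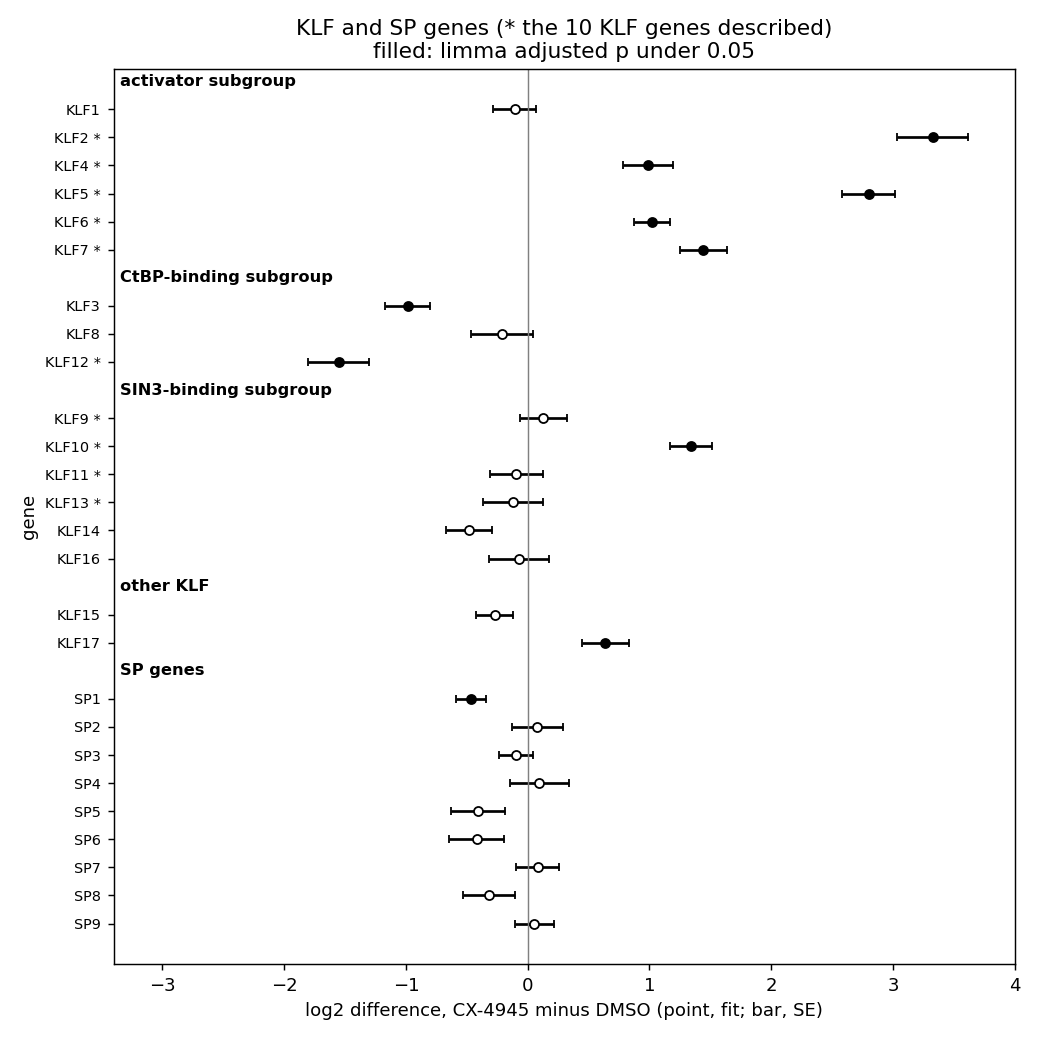
Log2 difference, CX-4945 minus DMSO (horizontal axis), of KLF and SP genes (vertical axis), grouped by the partner their proteins bind. Points are fitted differences, bars their SE, and filled points have a limma adjusted p under 0.05. In the activator subgroup 5 of 6 points are filled to the right of 0, in the CtBP-binding subgroup 2 of 3 to the left, and in the SIN3-binding subgroup KLF10 alone is filled. Of all genes 10.3% were called higher and 12.5% lower.

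By protein partner, the activator subgroup had 5 of 6 genes called higher and none lower, with a median fitted log2 difference of 1.23, but KLF4, one of the 5, and KLF1 lay below the olfactory receptor level on all arrays. The CtBP-binding subgroup had 2 of 3 lower and none higher, with a median of -0.99, and KLF8 lay below that level on all arrays and KLF12 on the treated ones. The SIN3-binding subgroup had 1 of 6 higher and none lower, with a median of -0.08, and KLF13 and KLF14 lay below the level on all arrays. Of all genes 10.3% were called higher and 12.5% lower, with a median of 0.02. The subgroup counts describe genes of which most had been chosen with results of these data known. KLF3, a CtBP-binding repressor of fat cell and B cell genes, gave 8203, 4971 and 6142 with CX-4945, against 12361, 13494 and 11678 with DMSO. Its groups did not overlap, with a log2 difference of -0.99 ± 0.18 (limma adjusted p = 0.00151; 0.0681 without moderation). The antisense gene KLF3-AS1 and the pseudogene KLF3P1 were lower too, by log2 differences of -1.07 ± 0.25 and -0.81 ± 0.20 (limma adjusted p = 0.0074 and 0.00906). KLF3P1 lost its call with treat against a fold of 1.2 (adjusted p = 0.0539). KLF3P2 did not pass, at -0.69, and was called lower after quantile normalization (-0.86, adjusted p = 0.0476) and without CX-4945 replicate 1 (-0.99, adjusted p = 0.0201).

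KLF1, the erythroid factor (log2 difference -0.10), KLF8 (-0.21), KLF14 (-0.48), KLF15 (-0.27) and KLF16 (-0.07) did not pass, and of these 5 only KLF16 had arrays above the olfactory receptor level. KLF14 was called lower under both other scalings (adjusted p = 0.0326 and 0.0363). KLF17 was called higher on its brighter row, with a log2 difference of 0.64 ± 0.19 (limma adjusted p = 0.0287), whereas its other row gave -1.004 ± 0.23, so its direction is not settled. The call was lost after quantile normalization (adjusted p = 0.128), with equal medians (0.0761), with all rows in the adjustment (0.0651) and with treat (0.178). It was also lost without CX-4945 replicate 1 or any of the 3 solvent arrays (adjusted p = 0.0724, 0.0698, 0.107 and 0.0694). KLF18 was not analysed here. The pseudogenes KLF2P1, KLF2P2, KLF2P3, KLF2P4, KLF4P1, KLF8P1 and KLF17P1 lay below the olfactory receptor level on all arrays, and none was called, with log2 differences between -0.25 and 0.22.

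Of the 9 SP genes, which bind the same GC boxes, 1 was lower and none higher, where 12.5% of all genes were lower and 10.3% higher. SP1 read 24018, 27344 and 24432 with CX-4945, against 32817, 37229 and 34711 with DMSO. The groups did not overlap, and the log2 difference was -0.47 ± 0.12 (limma adjusted p = 0.0141). The SP1 call was lost without an intensity trend (0.0619) and with treat against a fold of 1.2 (0.262). It was also lost without CX-4945 replicate 3, DMSO replicate 2 or DMSO replicate 3 (0.0621, 0.0872 and 0.0556). SP2 (0.08), SP3 (-0.10), SP4 (0.10), SP5 (-0.41), SP6 (-0.42), SP7 (0.08), SP8 (-0.32) and SP9 (0.06) did not pass. SP5, SP7, SP8 and SP9 lay below the olfactory receptor level on all arrays. SP6 lay below it on all treated arrays and on 1 solvent array. The SP genes had a median log2 difference of -0.10.

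**Figure D3:**
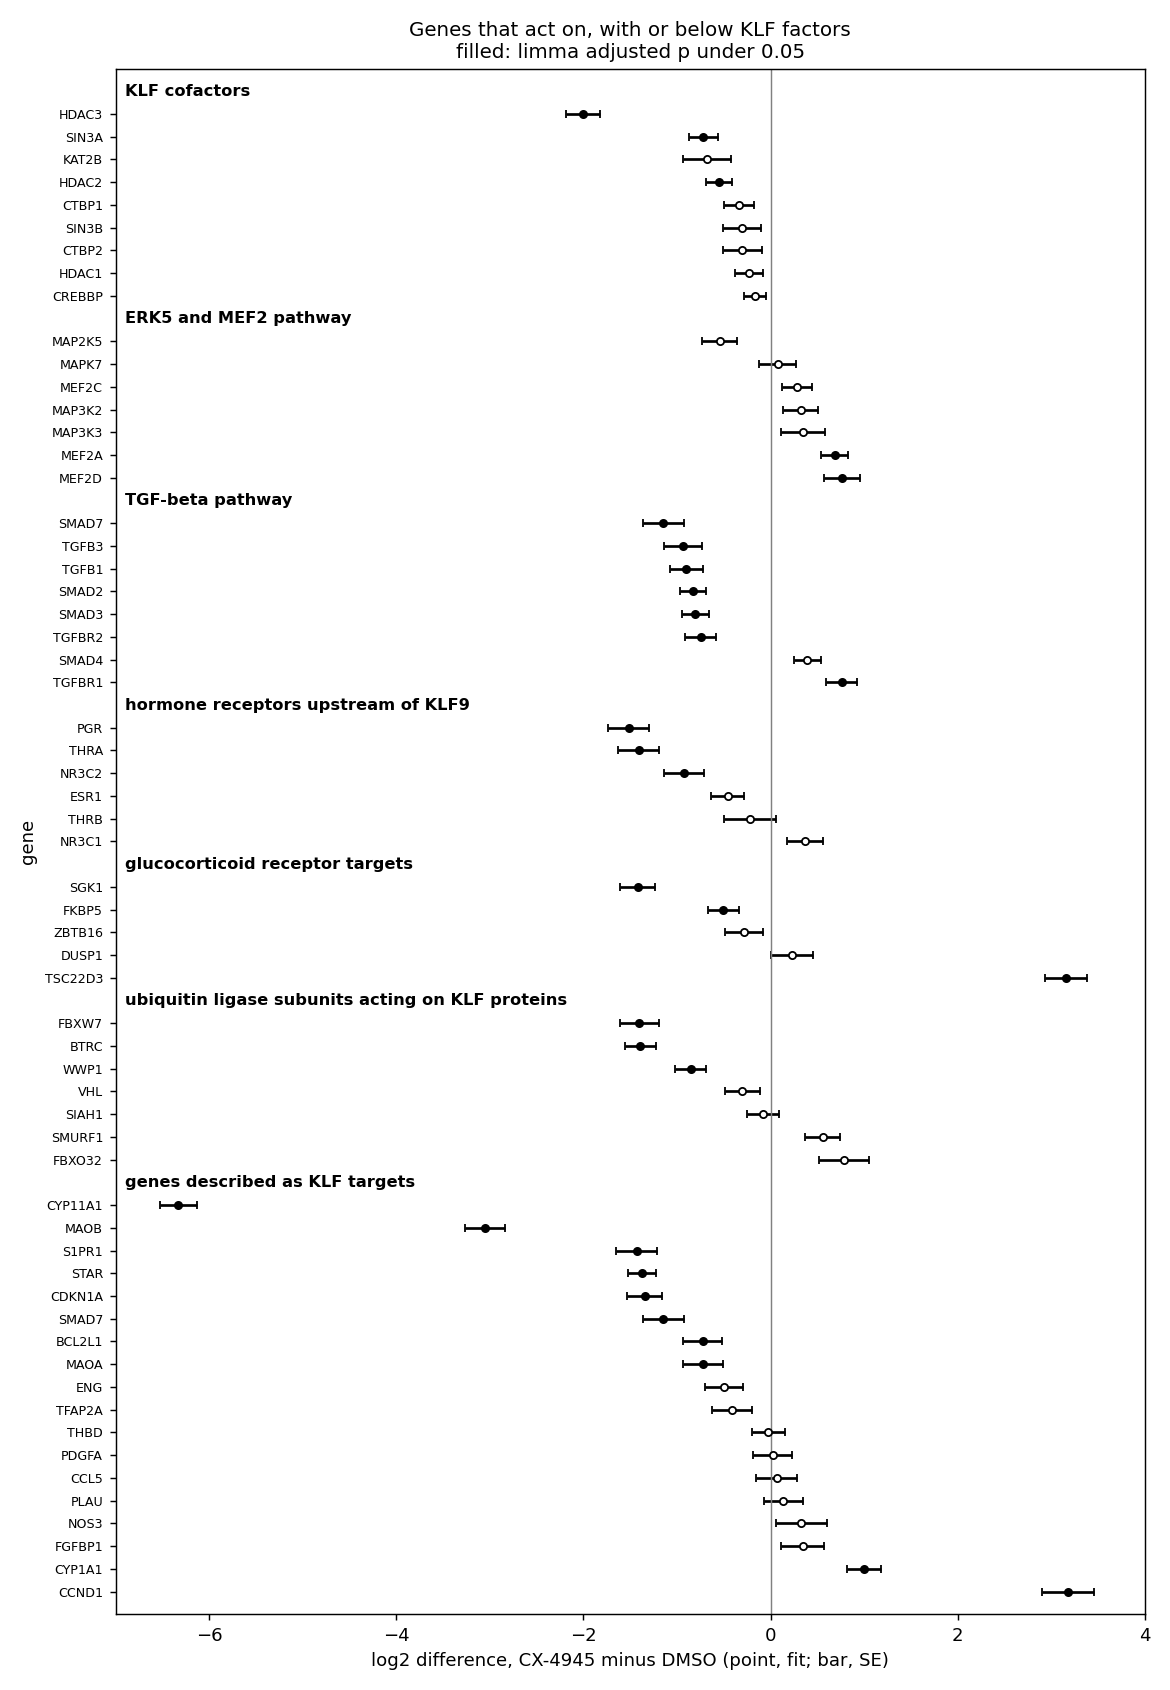
Log2 difference, CX-4945 minus DMSO (horizontal axis), of the genes in 7 lists around KLF factors (vertical axis), ordered within each list. Points are fitted differences, bars their SE, and filled points have a limma adjusted p under 0.05. HDAC3 stands apart among the cofactors, TSC22D3 among the glucocorticoid receptor targets, and CYP11A1, MAOB and CCND1 among the genes described as KLF targets.

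Coregulators through which KLF factors act, histone deacetylases, acetyltransferases and their scaffolds, were lower in 3 of 9 measured genes and higher in none, with a median log2 difference of -0.34. For this and the lists that follow, 12.5% of all genes were called lower and 10.3% higher, with a median of 0.02. HDAC3, a histone deacetylase, read 1072, 1389 and 947 with CX-4945, against 4182, 4670.3 and 4710.2 with DMSO, a 4.03-fold fall with no overlap (log2 difference -2.01 ± 0.18, limma adjusted p = 5.49e-06). SIN3A, the scaffold that KLF10 and its relatives bind, and HDAC2 were lower by smaller amounts (log2 differences -0.72 and -0.55). The HDAC2 call was lost without DMSO replicate 1 or 2 (adjusted p = 0.0638 and 0.0583) and with treat against a fold of 1.2 (0.153). CTBP1 and CTBP2, the partners of KLF12 and KLF3, did not pass (log2 differences -0.34 and -0.30). EP300 was not analysed here.

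Of 7 measured genes of the ERK5 and MEF2 pathway, which drives KLF2 and KLF4 in endothelium, 2 were higher and none lower. MEF2A read 35016, 25177 and 32552 with CX-4945, against 20418, 18220.3 and 18487 with DMSO, and MEF2D read 2362, 3514 and 2247 with CX-4945, against 1547, 1532 and 1619.6 with DMSO. Neither gene overlapped between groups, with log2 differences of 0.69 ± 0.15 and 0.76 ± 0.19 (limma adjusted p = 0.00398 and 0.0125). Both were named for their low adjusted p, and in the whole list 3 of 7 genes did not overlap, against 36% of all genes. MAPK7, which encodes ERK5, differed by 0.08 and its kinase MAP2K5 by -0.54 (limma adjusted p = 0.0574), and neither passed. MAP2K5 was called lower after quantile normalization (0.0207), with equal medians (0.0224), with either filter (0.0473 and 0.0353) and with array weights (0.0492). Without CX-4945 replicate 2 the list had 4 higher and 1 lower, and without DMSO replicate 2 it had 1 higher, since MEF2D lost its call (adjusted p = 0.0539).

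TGF-beta signalling induces KLF10 and KLF11, and 6 of 8 measured genes of that pathway were lower while 1 was higher. Among the lower genes, TGFB3 lay below the olfactory receptor level in both groups and was named after its value was seen. Its mean log2 intensity was 4.05 with CX-4945 and 4.98 with DMSO. The inhibitory SMAD7, which KLF10 and KLF11 repress, read 269, 375 and 287 with CX-4945, against 667, 860.0 and 546 with DMSO. Its groups were apart, with a log2 difference of -1.15 ± 0.22 (limma adjusted p = 0.00213). The signal transducers SMAD2 and SMAD3 were lower too, with log2 differences of -0.83 and -0.81. The rise was that of the receptor gene TGFBR1, at 0.76 ± 0.17 (limma adjusted p = 0.00475), named after its value was seen, and without CX-4945 replicate 2 or with a filter at the median there were 2 rises. Without moderation of the variances 3 of the 8 were lower and 0 higher. The list's median log2 difference was -0.82.

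Of 6 hormone receptor genes known to act on KLF9, 3 were lower and none higher. The log2 difference was -1.52 for the progesterone receptor PGR, -1.41 for the thyroid hormone receptor THRA and -0.93 for the mineralocorticoid receptor NR3C2. Of 5 measured target genes of the glucocorticoid receptor, 1 was higher and 2 were lower. TSC22D3, or GILZ, read 2449, 4251 and 2511 with CX-4945, against 316, 349.9 and 331 with DMSO, with treated replicate 2 highest as in KLF2. It rose 8.94-fold (log2 difference 3.16 ± 0.22, limma adjusted p = 7.57e-07), while SGK1 and FKBP5 were lower, with log2 differences of -1.42 and -0.50 (limma adjusted p = 0.0426 for FKBP5). FKBP5 lost its call without CX-4945 replicate 1 or 3 or DMSO replicate 1 or 2, with adjusted p of 0.0857 to 0.178. It was also lost with the replicate number as a block (0.0515), without a trend (0.0612), without moderation (0.0936), with all rows (0.0862) and with treat (0.335), which left 1 lower gene in the list. The members of this list thus differed in direction.

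Ubiquitin ligase subunits that mark KLF proteins for degradation were lower in 3 of 7 genes and higher in none. FBXW7, which recognises KLF2, KLF5 and KLF10, read 1162, 778 and 1357 with CX-4945, against 2729.6, 2949 and 2822 with DMSO. WWP1, a ligase for KLF2 and KLF5, read 1526, 1346 and 1584 with CX-4945, against 2568, 2479.8 and 3024 with DMSO. BTRC, which acts on KLF4, read 2116, 2620.4 and 2073 with CX-4945, against 5182, 6372 and 6309.9 with DMSO. None of the 3 overlapped between groups. The log2 differences were -1.40 ± 0.21, -0.85 ± 0.17 and -1.39 ± 0.17 (limma adjusted p = 3.14e-04, 0.00228 and 5.62e-05). With the replicate number as a block, with array weights, with either filter or without CX-4945 replicate 1 the list had 2 higher genes, and without DMSO replicate 2 it had 1. Levels of KLF proteins were not measured.

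Of 18 measured genes described as targets of KLF factors, 2 were higher and 8 lower, with a median log2 difference of -0.45. Without moderation 5 were lower, and with a filter at the median 1 was higher. The list mixes genes that KLF factors activate with genes that they repress. Among the lower genes, MAOA lay below the olfactory receptor level in both groups. Its mean log2 intensity was 5.277 with CX-4945 and 5.996 with DMSO. NOS3, THBD, FGFBP1 and CCL5, which were not called, also lay below that level in both groups. MAOA and these genes were named after their values were seen. SMAD7 was counted as lower both here and in the TGF-beta list. Cyclin D1, CCND1, which KLF5 activates in epithelial cells, read 208, 288 and 168 with CX-4945, against 24.8, 16.7 and 32.8 with DMSO, where it was at background. With the solvent arrays set to the olfactory receptor level its rise was at least 2.57-fold (limma adjusted p = 4.31e-06). The monoamine oxidase MAOB, a target of KLF11, read 127, 185 and 158 with CX-4945, against 1342, 1483 and 1064 with DMSO, an 8.29-fold fall with no overlap (log2 difference -3.05 ± 0.21, limma adjusted p = 6.83e-07). CYP1A1 was the other rise, at 0.998 ± 0.18 (limma adjusted p = 0.00117), and CDKN1A, which KLF4 and KLF6 activate, fell by 1.35 on the log2 scale, and both were named after their values were seen. Of the steroidogenic genes studied with KLF4, KLF9 and KLF13, CYP11A1 and STAR were lower, with log2 differences of -6.33 and -1.37.

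Genes with a pattern like that of KLF2 were sought among all genes by the Euclidean distance of their 6 log2 values, each gene set to its own DMSO mean. TNFRSF12A, the receptor for the cytokine TWEAK, was closest at a distance of 0.51, then TSC22D3 at 0.52 and PERP, a p53-induced membrane protein gene, at 0.67, where the median over genes was 5.83. TNFRSF12A read 9094, 13350 and 7851 with CX-4945, against 899.7, 1044 and 803 with DMSO, and its treated replicate 2 was the highest too. For KLF12 the closest were LAMB4 at 0.38, DDO at 0.39 and LYPLAL1 at 0.43, where the median was 2.85. These distances rest on 6 arrays in 2 groups. The genes were chosen by these same values, so a shared order of arrays, replicate 2 included, follows from the choice. The medians over genes mostly reflect how far KLF2 and KLF12 themselves moved.

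**Figure D4:**
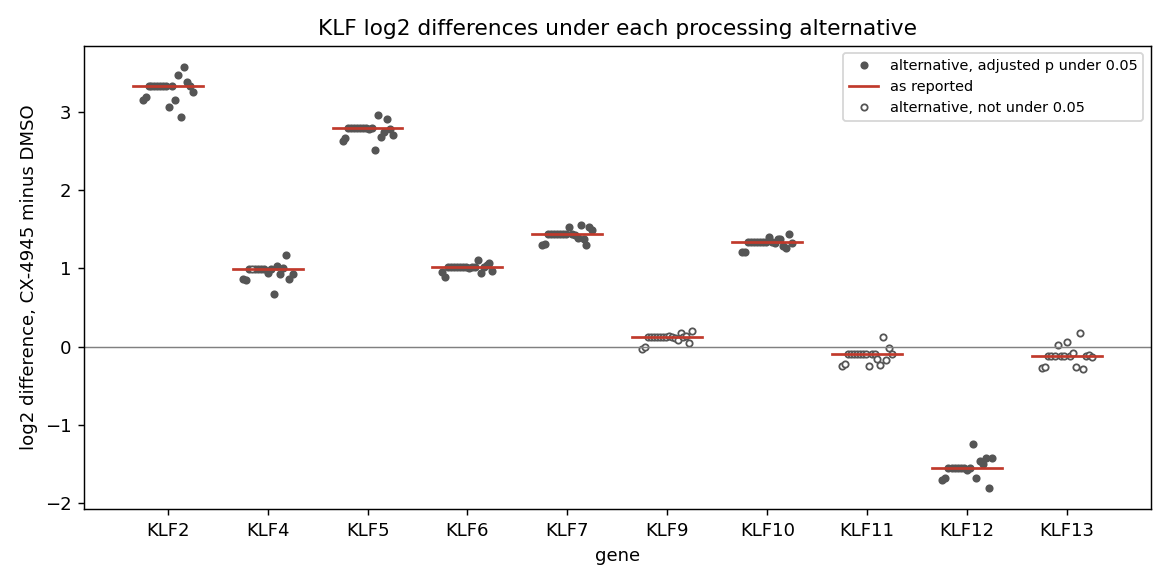
Log2 difference, CX-4945 minus DMSO (vertical axis), of the 10 KLF genes (horizontal axis) as reported (red line) and under each processing alternative (points). Filled points have an adjusted p under 0.05. KLF2, KLF5, KLF6, KLF7, KLF10 and KLF12 keep filled points throughout, KLF4, at background in both groups, has 1 open point, and the points of KLF9, KLF11 and KLF13 are open and lie on both sides of 0.

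Other scalings of the arrays shifted the differences of all genes. Over all genes the median log2 difference, 0.02 on the deposited scale, became -0.09 when the arrays were quantile normalized and -0.11 when their medians were made equal. Rises made up 45.3% of all calls on the deposited scale, 33.2% after the quantile step and 32.4% with equal medians. The calls of the 10 KLF genes were 6 higher and 1 lower under these scalings too, while among the other 7 KLF genes KLF17 lost its call and KLF14 gained one. The log2 difference of KLF2 was 3.15 to 3.20, that of KLF5 2.63 to 2.67, that of KLF6 0.89 to 0.96 and that of KLF12 -1.71 to -1.68.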

How the data were processed

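RNA of 3 CX-4945 and 3 DMSO samples was amplified and labelled by a whole-transcript kit, per the labels' protocols. The deposited values were linear intensities made with Affymetrix Expression Console, per the submitters' processing notes; version, settings and build were not given in the sources used here. They were taken as normalized by the authors. Their log2 was used with no pseudocount or filter. A platform table gave 36176 of 135750 rows exactly 1 symbol, and each gene was represented by its brightest row on average, which left 33616 genes; no value column was left unmatched to a sample. Groups came from the sample titles and were compared with limma 3.58.1 in R 4.3.3 (lmFit, eBayes with an intensity trend, 4 residual degrees of freedom), two-sided, adjusted over all genes by Benjamini-Hochberg with a threshold of 0.05. The fit was tested on simulated data. Single genes were permuted exactly with scipy 1.17.1. The number of arrays limits the precision.

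The 10 genes, the 9 gene lists and the olfactory receptor level were chosen with earlier results of these data known. Named genes were the 10, the other KLF and SP genes, pseudogenes and antisense genes with a KLF name, the 3 genes of lowest adjusted p in every other list, STAR and CYP11A1, and the 3 genes nearest to the highest and the lowest of the 10. Alternatives were 2 scalings, no trend, no moderation, 2 filters, the mean of rows, all rows, a replicate block, array weights, a fold of 1.2 in treat, a pseudocount of 16, and each array left out. Promoter windows were RefSeq sequences of GRCh38.p14. Scan batches were not analysed here.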

Additional observations from a re-analysis of the deposited data

How the results depend on the processing

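The counts of 6 KLF genes higher and 1 lower were the same under 16 of 18 alternatives, each single array left out among them. Without moderation 5 were higher and 1 lower, since KLF4 lost its call, and 4259 genes were called in all. KLF3, KLF3-AS1, KLF7P1, MEF2A, MEF2D, SMAD7, NR3C2, THRA and FKBP5 lost theirs too, with adjusted p of 0.0567 for THRA to 0.113 for KLF3-AS1. With a filter at the median 5 were higher and 0 lower, because KLF4, KLF12 and KLF13 were then not tested. All genes called numbered 5005 with treat against a fold of 1.2, and 5865 to 8921 when an array was left out, with 6 and 1 KLF genes each time. The 2 rises among ERK5 and MEF2 genes were 0 without moderation and 1 with treat or without DMSO replicate 2. With the replicate number as a block, 8058 genes were called, and the KLF counts were 6 and 1. The correlations of deviations of same-numbered arrays were 0.0925, 0.0896 and -0.035, and 4 of 6 arrays correlated best with their own number. These values do not decide whether the samples were paired. The samples were not taken as pairs because the labels name no pairing.

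Among the named genes, signs changed for KLF17 and for differences near 0. Quantile normalization gave log2 differences of -0.036 for KLF9, -0.084 for SP2, -0.11 for SP4, -0.015 for SP9, -0.048 for KLF17P1 and -0.10 for KLF2P1. Equal medians gave -0.0059 for KLF9, -0.054 for SP2, -0.037 for SP4, -0.050 for SP7, -0.077 for SP9, -0.060 for KLF17P1 and -0.089 for KLF2P1. The mean of a gene's rows gave 0.023 for KLF13 and -0.18 for KLF17, whose 2 rows go opposite ways. Array weights gave 0.060 for KLF13, -0.067 for SP2, -0.030 for SP7 and -0.015 for SP9. With an array left out, the values ranged from -0.24 to 0.12 for KLF11, -0.28 to 0.17 for KLF13, -0.31 to 0.078 for KLF16, -0.048 to 0.21 for KLF17P1, -0.047 to 0.10 for KLF2P1, -0.0025 to 0.25 for KLF2P2, -0.35 to 0.045 for KLF8, -0.13 to 0.22 for SP2, -0.18 to 0.00088 for SP3, -0.092 to 0.36 for SP4, -0.019 to 0.22 for SP7 and -0.027 to 0.15 for SP9. Apart from KLF17, the cause was not tested. Signal over background limits KLF4, KLF5, KLF9, KLF12 and KLF13, and the solvent arrays of KLF2 lay only a little above background.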
